A study of Homo sapiens with 10 samples.

Results

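Gene expression under a phthalate mixture (Mix) was compared with expression under the single phthalate DProP in differentiating human neurospheres, across all genes. The libraries were taken by their labelled treatment, which gave 2 Mix and 2 DProP libraries, 4 of the 10 libraries of the series. The cells were of ReNcell VM, a human neural progenitor line that was immortalised, grown as neurospheres and then differentiated on laminin for 6 days with the substance present and renewed at each medium change. Mix, DProP, DPP and DEP (diethyl phthalate) were each labelled 100 µM, and the vehicle was 0.1% DMSO. DProP commonly abbreviates di-n-propyl phthalate, although the labels do not spell it out. The labels give neither the make-up of Mix nor whether its 100 µM is the total of its components, so the compounds behind a difference from DProP cannot be told apart from their doses. Each library pooled the RNA of 6 neurospheres of the 1 line. Separate cultures for the libraries of a group are not stated in the labels, and p values therefore reflect only the spread seen among these libraries. The Mix libraries held 72973100 and 61682236 counts, against 57222381 and 70845673 counts in the DProP libraries.

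Phthalate esters are plasticisers and solvents to which people are widely exposed. When growth factors are withdrawn, neural progenitors of this kind leave the cell cycle and form neurons and glia. Proneural transcription factors start the neuronal programme, RNA-binding proteins of the ELAVL family and cytoskeletal proteins follow, and synaptic genes come later. The labelled cell type was checked against its markers. The progenitor genes SOX2, NES and VIM, the astrocyte gene GFAP and the neuronal genes MAP2 and DCX were measured at 87.5 CPM or more (counts divided by the TMM-scaled library size in units of 1e6) in each of the 4 libraries. The microglial genes AIF1 and PTPRC, the endothelial gene PECAM1 and the pluripotency gene POU5F1 were at 0 counts in all 4. Other markers of these types were low but not absent. The endothelial gene CDH5 had 1.16 and 2.29 CPM in Mix and 0.962 and 1.74 CPM in DProP. KDR, also endothelial, had 0.519 and 0.287 CPM in Mix and 0.456 and 0.301 CPM in DProP. The pluripotency gene NANOG had 0.423 and 0.542 CPM in Mix and 0.422 and 0.424 CPM in DProP. The microglial gene CX3CR1 had 0.123 and 0 CPM in Mix and 0.0506 and 0 CPM in DProP. The oligodendrocyte regulator OLIG2 was measured at 0.218 and 0.255 CPM in Mix and 0.321 and 0.287 CPM in DProP.

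Of 33 neuronal markers, 18 were called higher in Mix than in DProP and 1 lower, whereas of 26 genes of cholesterol synthesis 12 were called lower and 0 higher. Of 19465 genes tested, 1342 differed at an adjusted p under 0.05 (6.89%), by edgeR's quasi-likelihood test with Benjamini-Hochberg adjustment. Higher levels in Mix were called for 849 genes (4.36%) and lower levels for 493 (2.53%). An unadjusted p under 0.05 was reached by 4201 of all tested genes (21.6%), the share to set beside such counts for lists below. All of these 1342 genes had both Mix libraries beyond both DProP libraries. The calls were made on these same libraries, so this is a description and adds no support. The share over all tested genes is not given here. The differences were mostly modest: the median size among called genes was 0.50 on the log2 scale, and 245 genes differed 2-fold or more, 133 of them higher and 112 lower. Scaling by library size alone turned the split to 667 higher and 601 lower, with the median over all genes moving from 0.0048 to -0.028. The counts depended on single libraries, being 382 without Mix 1, 772 without Mix 2, 774 without DProP 1 and 542 without DProP 2. A core of 278 genes, 217 higher and 61 lower, was called in all 4 of these fits. Where a called gene named below lost its call with a library left out, the adjusted p without that library is given, except for ID1. GFAP, VIM and NES had log2 fold changes of 0.02, 0.01 and -0.02, and none of these passed the test.

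**Figure D1:**
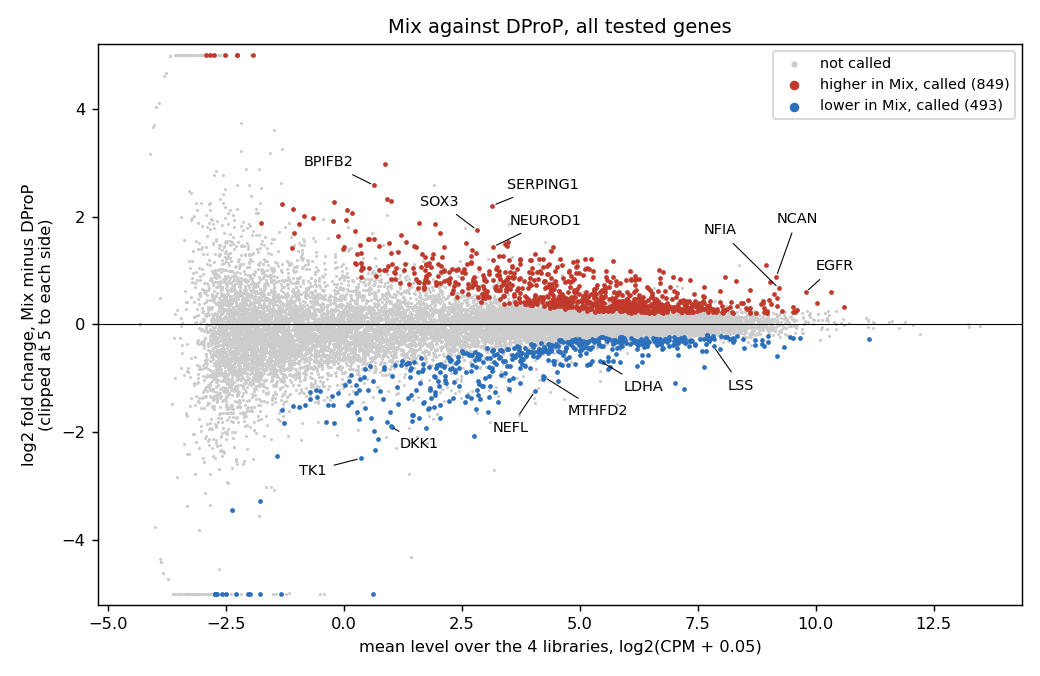
Log2 fold change (Mix minus DProP) against the mean level over the 4 libraries, with 1 dot per tested gene. Red dots are the 849 genes called higher in Mix and blue dots the 493 called lower, and most of the called genes lie within 1 log2 unit of 0.

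For most of these genes Mix rather than DProP stood apart from the other phthalates. Both Mix libraries lay beyond all 6 DProP, DPP and DEP libraries for 1116 of the 1342 called genes (83.2%), above them for 755 and below them for 361. Over all tested genes that share was 26.3%. Both DProP libraries lay beyond all 6 Mix, DPP and DEP libraries for 172 called genes (12.8%), against 7.93% of tested genes. The mean of the DPP libraries was nearer to Mix than to DProP for 89 called genes (6.63%), against 32.7% of all tested genes. The mean of the DEP libraries was nearer to Mix for 475 called genes (35.4%), against 44.8% of all tested genes. The vehicle mean was nearer to Mix for 1009 called genes (75.2%), compared with 60.0% of all tested genes. These shares use the same Mix and DProP libraries that made the calls and are given as a description.

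Neuronal genes were called more often than those of any other list with 12 or more tested members. Of 33 tested neuronal markers, 18 were called higher in Mix and 1 lower, with a median log2 fold change of 0.52 against 0.0048 over all tested genes. The 18 higher calls became 8 without Mix 1, 10 without Mix 2, 11 without DProP 1 and 9 without DProP 2. Among 22 proneural transcription factors 9 were higher and none lower, with a median of 0.81. The 9 became 5 without Mix 1, 4 without Mix 2, 5 without DProP 1 and 4 without DProP 2. By an unadjusted p under 0.05 the factors split into 14 higher and 2 lower, and limma-voom and DESeq2 each called 10 higher and 0 lower. In RNA from whole neurospheres, fewer cells of a type and less RNA per cell cannot be told apart.

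NEUROD1, a basic helix-loop-helix factor of early neuronal differentiation, stood at 13.5 and 12.6 CPM in the Mix libraries, against 5.38 and 4.26 CPM in the DProP libraries. Its log2 fold change was 1.44 (SE 0.16, edgeR adjusted p = 0.000616). DEP gave 5.26 and 6.52 CPM and DPP 3.10 and 2.60 CPM, while vehicle gave 14.1 and 11.8 CPM, so that Mix overlapped only vehicle. ELAVL3, which encodes a neuronal RNA-binding protein, was at 43.0 and 49.9 CPM in Mix and at 21.9 and 23.5 CPM in DProP, a log2 fold change of 1.04 (SE 0.13, edgeR adjusted p = 0.00158). Vehicle libraries had 71.8 and 74.2 CPM of ELAVL3, above every phthalate library. The zinc finger factor INSM1, which acts in neurogenic progenitors, had 38.2 and 44.9 CPM in Mix and 20.8 and 22.2 CPM in DProP (log2 fold change 0.95, edgeR adjusted p = 0.00243). LHX1, a LIM homeodomain factor, had 8.34 and 9.43 CPM in Mix and 4.17 and 3.77 CPM in DProP (log2 fold change 1.16, edgeR adjusted p = 0.0019). For each of these 4 genes the Mix and DProP libraries were separate, and both DPP libraries lay below both DProP libraries.

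DCX, the microtubule protein of migrating young neurons, showed the same order. It was at 166 and 159 CPM in Mix and at 90.0 and 87.5 CPM in DProP, a log2 fold change of 0.87 (edgeR adjusted p = 0.00548). Without Mix 1 its adjusted p was 0.0546, the highest of its 13 alternatives, which ran down to 1.83e-11. TUBB3, the neuronal beta-tubulin, had 450 and 505 CPM in Mix and 289 and 328 CPM in DProP (log2 fold change 0.63, edgeR adjusted p = 0.022). Its call was less firm, with an adjusted p of 0.0669 without Mix 1, 0.11 without Mix 2 and 0.104 without DProP 1, in a range from 0.00304 to 0.11. Some mature and transmitter-type markers of the same list did not pass the test. Among them, by log2 fold change, were RBFOX3 (0.04), GAD1 (-0.26), NEFM (-0.02) and UCHL1 (-0.02). Others did pass it, with MAPT called higher (log2 fold change 0.82) and NEFL called lower (-1.24).

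NEFL, the neurofilament light chain, was the 1 neuronal marker called lower in Mix. It had 9.42 and 10.3 CPM in the Mix libraries, against 23.7 and 22.7 CPM in the DProP libraries (log2 fold change -1.24, SE 0.10, edgeR adjusted p = 0.000154). Mix was below every other library, with 29.6 and 34.3 CPM in DPP, 16.4 and 14.9 CPM in DEP and 18.7 and 17.6 CPM in vehicle. INA, which encodes the related neuronal filament protein alpha-internexin, went the other way, with 73.5 and 80.2 CPM in Mix and 53.3 and 47.6 CPM in DProP (log2 fold change 0.61, edgeR adjusted p = 0.00174).

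**Figure D2:**
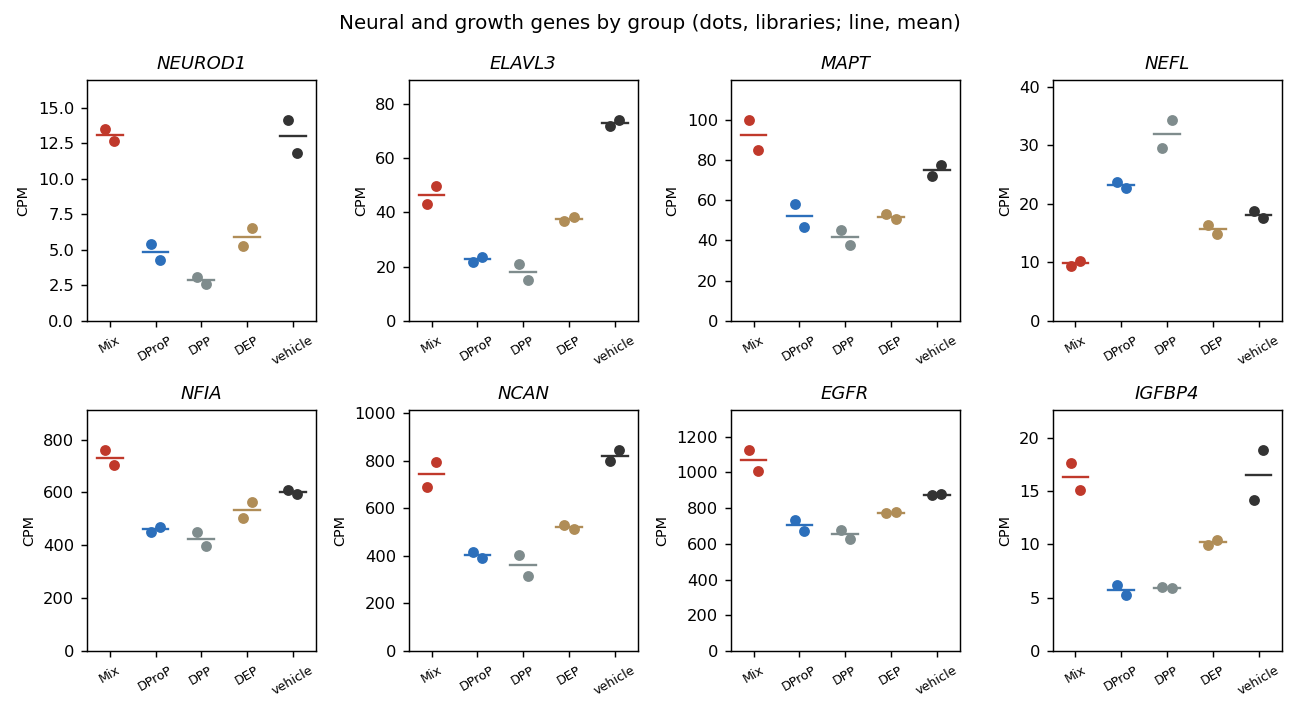
CPM of 8 genes in the 10 libraries, by group, with dots for libraries and a line for the group mean; each axis starts at 0. The Mix and DProP dots are separate in all 8 panels, NEFL is lower in Mix than in DProP, and the other 7 genes are higher.

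Genes of the growing neurite were called in the higher direction alone. Of 27 neurite cytoskeleton genes, 14 were called higher and 0 lower, with a median log2 fold change of 0.27, and 26 of the 27 were above 0. The higher calls became 4 without Mix 1, 5 without Mix 2, 5 without DProP 1 and 6 without DProP 2. At an unadjusted p under 0.05 there were 18 higher and 0 lower, limma-voom called 14 higher and DESeq2 17 higher, with 0 lower in both. MAPT, the axonal microtubule protein tau, had 99.8 and 84.7 CPM in Mix and 57.9 and 46.7 CPM in DProP (log2 fold change 0.82, SE 0.12, edgeR adjusted p = 0.00298). STMN4, a tubulin-binding stathmin, had 16.04 and 16.3 CPM in Mix and 8.10 and 8.48 CPM in DProP (log2 fold change 0.96, edgeR adjusted p = 0.00454). KIF5C, a kinesin heavy chain of axonal transport, had 526 and 518 CPM in Mix and 389 and 413 CPM in DProP (log2 fold change 0.38, edgeR adjusted p = 0.00504). All 3 genes had both Mix libraries above both DProP libraries. MAPT and STMN4 are also in the list of neuronal markers, so the calls of these lists are not separate results.

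Of 44 synaptic genes 12 were higher and 1 lower, with a median of 0.15. The higher calls became 6 without Mix 1, 9 without Mix 2, 7 without DProP 1 and 6 without DProP 2. CPLX1 encodes complexin 1, which binds the vesicle fusion machinery. Its levels were 101 and 78.1 CPM in Mix, against 48.3 and 41.7 CPM in DProP (log2 fold change 1.00, edgeR adjusted p = 0.0065). The vesicle protein gene SYP had 12.04 and 13.2 CPM in Mix and 7.04 and 7.10 CPM in DProP (log2 fold change 0.84, edgeR adjusted p = 0.00334). RAB3A, a small GTPase of synaptic vesicles, had 14.6 and 16.1 CPM in Mix and 9.80 and 9.99 CPM in DProP (log2 fold change 0.63, edgeR adjusted p = 0.00415). NLGN3, a postsynaptic adhesion protein, had a log2 fold change of 0.43 (edgeR adjusted p = 0.00342). The 1 gene called lower was the kainate receptor gene GRIK2, with a log2 fold change of -0.40 (edgeR adjusted p = 0.0218). Its adjusted p was 0.151 without Mix 1, 0.072 without Mix 2 and 0.142 without DProP 1.

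Ion channel genes moved both ways, with 9 of 47 higher and 3 lower and a median of 0.11. The higher calls became 4 without Mix 1, 6 without Mix 2, 7 without DProP 1 and 5 without DProP 2. CACNG4, an auxiliary subunit of calcium channels and AMPA receptors, had 92.2 and 96.5 CPM in Mix and 49.98 and 51.4 CPM in DProP (log2 fold change 0.90, edgeR adjusted p = 0.000403). KCNQ3, a subunit of the M-type potassium channel, had 111 and 85.7 CPM in Mix and 56.98 and 53.2 CPM in DProP (log2 fold change 0.84, edgeR adjusted p = 0.00111). KCNJ2, an inward rectifier, was lower, with 19.3 and 21.4 CPM in Mix and 30.3 and 33.3 CPM in DProP (log2 fold change -0.65, edgeR adjusted p = 0.0012). Axon guidance genes were called higher for 6 and lower for 3 of 40, and none of these 9 stayed called in all 4 fits with a library left out.

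Astrocyte genes were partly higher in Mix, although GFAP was not. Of 23 tested astrocyte markers 9 were higher and 2 lower, with a median of 0.37. The higher calls became 4 without Mix 1, 9 without Mix 2, 4 without DProP 1 and 3 without DProP 2. The 2 lower genes, GJA1 (-0.24) and SPARCL1 (-0.26, both as log2 fold changes), were not called when any 1 of the 4 libraries was left out, with edgeR adjusted p from 0.101 to 0.203 for GJA1 and from 0.0747 to 0.209 for SPARCL1. NFIA, a transcription factor of gliogenesis, had 760 and 703 CPM in Mix and 450 and 470 CPM in DProP (log2 fold change 0.67, SE 0.07, edgeR adjusted p = 0.000616). Mix was above every other library for NFIA, with 609 and 593 CPM in vehicle as the next highest group. The water channel gene AQP4 had 573 and 337 CPM in Mix and 231 and 194 CPM in DProP, a log2 fold change of 1.10 that did not pass the test (edgeR adjusted p = 0.052). The glutamate transporter gene SLC1A2 showed the same spread, with 66.6 and 38.9 CPM in Mix and 20.8 and 24.8 CPM in DProP. Its log2 fold change was 1.21 (edgeR adjusted p = 0.0196), and its adjusted p was 0.104 without DProP 1 and 0.0679 without DProP 2, within a range from 8.85e-10 to 0.19. HEPACAM, a glial adhesion protein, had 31.8 and 23.4 CPM in Mix and 13.3 and 12.1 CPM in DProP (log2 fold change 1.12, edgeR adjusted p = 0.00149). It was not among these astrocyte markers and was counted with the BMP and ID genes.

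Among 22 neural progenitor markers 6 were higher and none lower, with a median of 0.13. The SOXB1 factors keep neural progenitors undifferentiated. SOX3 had 10.47 and 11.1 CPM in Mix and 3.16 and 3.25 CPM in DProP, a log2 fold change of 1.75 (SE 0.17, edgeR adjusted p = 0.000274), and Mix was above all other libraries, vehicle included. SOX1 had 21.2 and 20.5 CPM in Mix and 10.04 and 13.5 CPM in DProP (log2 fold change 0.82, edgeR adjusted p = 0.00515), with an adjusted p of 0.0504 without Mix 1 and a range down to 7.3e-06. SOX2 had 693 and 716 CPM in Mix and 606 and 603 CPM in DProP, and its log2 fold change of 0.22 did not pass the test (edgeR adjusted p = 0.0619). At an unadjusted p under 0.05 the list split into 11 higher and 2 lower, limma-voom called 7 higher and 0 lower, and DESeq2 called 8 higher and 2 lower. The 6 higher calls became 2 without Mix 1, Mix 2 or DProP 1 and 3 without DProP 2.

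Of 63 extracellular matrix genes 11 were higher and 9 lower, with a median of -0.04. Neurocan, versican and brevican are proteoglycans that bind hyaluronan around neural cells. NCAN (neurocan) had 691 and 797 CPM in Mix and 418 and 390 CPM in DProP, with a log2 fold change of 0.88 (SE 0.11, edgeR adjusted p = 0.00138). VCAN (versican) and BCAN (brevican) were also higher, with log2 fold changes of 0.45 and 0.60. RELN, the secreted guide of neuronal migration, had 14.2 and 16.2 CPM in Mix and 8.64 and 7.94 CPM in DProP (log2 fold change 0.87, edgeR adjusted p = 0.00149). The microfibril gene FBN2 was lower, with 34.8 and 35.6 CPM in Mix and 57.3 and 67.1 CPM in DProP (log2 fold change -0.82, edgeR adjusted p = 0.00126). Of 32 collagen chains 3 were lower and 0 higher, with 1 higher and 11 lower at an unadjusted p under 0.05. limma-voom called 3 collagens lower and 0 higher, and DESeq2 called 6 lower and 1 higher. The 3 became 1 without Mix 1 or Mix 2 and 2 without DProP 1 or DProP 2. COL22A1 had 9.96 and 12.3 CPM in Mix and 19.8 and 19.04 CPM in DProP (log2 fold change -0.81, edgeR adjusted p = 0.00223). Matrix genes were called 4 higher and 1 lower without Mix 1, 10 and 6 without Mix 2, 7 and 7 without DProP 1, and 5 and 2 without DProP 2.

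Secreted signalling inhibitors and receptors were among the larger differences. DKK1, a secreted inhibitor of Wnt signalling, had 0.996 and 0.637 CPM in Mix and 3.46 and 2.65 CPM in DProP, a log2 fold change of -1.89 (SE 0.28, edgeR adjusted p = 0.00291). Of 34 Wnt pathway genes tested, 6 were higher and 2 lower (DKK1 among them), with a median of 0.09, and 4 or 5 were higher whichever of the 4 libraries was left out. SFRP1, another secreted Wnt antagonist, had 49.4 and 45.6 CPM in Mix and 30.3 and 31.8 CPM in DProP (log2 fold change 0.61, edgeR adjusted p = 0.00111). APCDD1, a membrane inhibitor of the pathway, had 144 and 129 CPM in Mix and 92.9 and 84.8 CPM in DProP (log2 fold change 0.62, edgeR adjusted p = 0.00107). LGR6, a receptor for R-spondins, had a log2 fold change of 0.97 (edgeR adjusted p = 0.00174). Wnt inhibitors thus stood on both sides of the comparison.

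In the hedgehog pathway HHIP, which binds and restrains hedgehog ligands, had 17.4 and 14.8 CPM in Mix and 5.53 and 6.16 CPM in DProP (log2 fold change 1.46, SE 0.15, edgeR adjusted p = 0.000386). Mix was above every other library for HHIP, and vehicle, at 8.999 and 7.01 CPM, came next. DTX1, a ubiquitin ligase that modifies Notch signalling, had 32.8 and 30.4 CPM in Mix and 13.3 and 10.1 CPM in DProP (log2 fold change 1.44, edgeR adjusted p = 0.00107). Of 25 Notch genes 5 were higher and 1 lower, and the higher calls became 2 without Mix 1, 3 without Mix 2, 3 without DProP 1 and 2 without DProP 2. IGFBP4, a binding protein for insulin-like growth factors, had 17.6 and 15.1 CPM in Mix and 6.21 and 5.22 CPM in DProP (log2 fold change 1.52, edgeR adjusted p = 0.000313). The 2 groups of IGFBP4 values were well apart, with DPP at the DProP level and DEP between them and Mix.

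EGFR, the receptor for epidermal growth factor, was higher in Mix, while DUSP4 and SPRY4, feedback genes of the MAP kinase pathway below it, were lower. EGFR had 1125 and 1011 CPM in Mix and 736 and 674 CPM in DProP (log2 fold change 0.60, SE 0.07, edgeR adjusted p = 0.000727), and Mix was above all 8 other libraries. DUSP4, a phosphatase that inactivates MAP kinases, had 2.51 and 2.60 CPM in Mix and 4.86 and 5.70 CPM in DProP (log2 fold change -1.05, edgeR adjusted p = 0.006), with an adjusted p of 0.0653 without Mix 1 and a range down to 9.4e-05. SPRY4, a feedback inhibitor of receptor signalling, had 7.25 and 9.05 CPM in Mix and 12.6 and 15.1 CPM in DProP (log2 fold change -0.77, edgeR adjusted p = 0.00798). Its adjusted p was 0.0893 without Mix 1 and 0.0724 without DProP 2, in a range down to 5.27e-05. Over the 30 genes of EGFR ligands, receptors and MAP kinase feedback 3 were higher and 5 lower, with a median of -0.18, and the lower calls became 0 without Mix 1, 4 without Mix 2, 5 without DProP 1 and 1 without DProP 2. The ID genes encode inhibitors of helix-loop-helix factors that respond to BMP signals. Of 24 tested BMP and ID genes 2 were higher and 2 lower, with a median log2 fold change of 0.03. The glial gene HEPACAM, given above, was among the higher ones. ID2 (0.26) and ID4 (0.08) did not pass the test. ID1 was called lower (-0.97, edgeR adjusted p = 0.0421), but not in each fit with a library left out. ID3 had 2.69 and 4.302 CPM in Mix and 7.51 and 9.90 CPM in DProP (log2 fold change -1.32, edgeR adjusted p = 0.00523), with an adjusted p of 0.0504 without Mix 1 and a range down to 2.53e-06.

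Cholesterol synthesis was the metabolic list with the most calls in 1 direction. Of 26 tested genes 12 were lower in Mix and 0 higher, with a median log2 fold change of -0.25, and 2 of the 26 were above 0. At an unadjusted p under 0.05 there were 16 lower and 0 higher, limma-voom called 12 lower and DESeq2 15 lower, with 0 higher in both. The 12 lower calls became 6 without Mix 1, 6 without Mix 2, 9 without DProP 1 and 5 without DProP 2. In this list DProP lay at the top of a spread of levels, and Mix lay between DProP and both vehicle and DEP. The mean level of the list was taken as log2(CPM + 1) centred on each gene's mean over the 10 libraries. It was 0.23 and 0.27 in DProP, above every other library. The level was 0.02 and 0.009 in Mix, 0.13 and 0.007 in DPP, -0.21 and -0.20 in DEP, and -0.14 and -0.13 in vehicle. Cells make cholesterol from acetyl-CoA through the mevalonate and lanosterol steps under the control of SREBP2, and neural cells depend on their own supply. ACAT2, the cytosolic thiolase at the entry of the pathway, had 44.9 and 42.7 CPM in Mix and 64.2 and 77.8 CPM in DProP (log2 fold change -0.70, edgeR adjusted p = 0.00342). LSS, which closes the sterol rings to lanosterol, had 198 and 195 CPM in Mix and 264 and 257 CPM in DProP (log2 fold change -0.41, SE 0.05, edgeR adjusted p = 0.00149). HSD17B7, which also acts in the sterol steps, had 21.3 and 21.6 CPM in Mix and 30.6 and 30.04 CPM in DProP (log2 fold change -0.50, edgeR adjusted p = 0.00305). All 3 genes were separate between Mix and DProP.

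INSIG1, which retains the SREBP complex in the endoplasmic reticulum, had 118 and 117 CPM in Mix and 141 and 148 CPM in DProP (log2 fold change -0.30, edgeR adjusted p = 0.00934). Its adjusted p was 0.062 without Mix 1, 0.0518 without Mix 2 and 0.0933 without DProP 2, in a range down to 1.04e-05. The vehicle libraries, at 181 and 179.97 CPM of LSS, lay below both Mix and DProP for that gene.

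On the side of sterol export, 3 of 13 genes were higher and 0 lower, with 4 higher and 3 lower at an unadjusted p under 0.05, 3 and 0 by limma-voom and 4 and 1 by DESeq2. The 3 became 1 without Mix 1, 2 without Mix 2, 0 without DProP 1 and 1 without DProP 2. ABCG1, a sterol exporter under the nuclear receptor LXR, had 6.17 and 6.39 CPM in Mix and 1.97 and 2.66 CPM in DProP (log2 fold change 1.43, edgeR adjusted p = 0.0114), with adjusted p values of 0.0648 without Mix 1 and 0.0634 without DProP 1 and a range down to 1e-05. APOE, the main lipid carrier of the brain, had 390 and 313 CPM in Mix and 206 and 178 CPM in DProP (log2 fold change 0.87, edgeR adjusted p = 0.0271). It was not called without Mix 1 (0.124), DProP 1 (0.0628) or DProP 2 (0.135), in a range down to 0.0006. ABCA1, the best known LXR target, had 677 and 629 CPM in Mix and 589 and 543 CPM in DProP and did not pass the test (log2 fold change 0.21, edgeR adjusted p = 0.121). CPT1C, the brain form of carnitine palmitoyltransferase, was higher, with 77.2 and 84.2 CPM in Mix and 44.7 and 46.3 CPM in DProP (log2 fold change 0.83, SE 0.07, edgeR adjusted p = 0.000236).

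Of 39 tested genes of glycolysis and the hypoxia response, 6 were lower and 2 higher, with a median of -0.16, and 9 of the 39 were above 0. ALDOC, 1 of the 2 higher genes, had a log2 fold change of 0.66 (edgeR adjusted p = 0.0114), with an adjusted p of 0.0997 without Mix 1 and 0.0638 without DProP 1. ENO2, the other, had 0.29 (edgeR adjusted p = 0.0215), with an adjusted p of 0.0996 without Mix 1, 0.0884 without Mix 2 and 0.178 without DProP 2. The lower calls were 5 without Mix 1, 4 without Mix 2, 5 without DProP 1 and 6 without DProP 2. HK2, the hexokinase of the first step of glycolysis, had 27.4 and 28.8 CPM in Mix and 47.2 and 45.7 CPM in DProP (log2 fold change -0.73, SE 0.10, edgeR adjusted p = 0.00153). LDHA, which turns pyruvate into lactate, had 30.2 and 35.9 CPM in Mix and 48.9 and 56.5 CPM in DProP (log2 fold change -0.68, SE 0.10, edgeR adjusted p = 0.00354). P4HA1, a prolyl hydroxylase of collagen, had 60.3 and 60.5 CPM in Mix and 105 and 91.7 CPM in DProP (log2 fold change -0.70, SE 0.08, edgeR adjusted p = 0.00107). SLC2A1, the glucose transporter GLUT1, had 73.0 and 75.7 CPM in Mix and 97.2 and 100.03 CPM in DProP (log2 fold change -0.41, edgeR adjusted p = 0.0027). In each of these 4 genes the DPP libraries were near or above DProP, and the DEP libraries lay below both DProP libraries.

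ACGTG is a form of the core that hypoxia-inducible factors bind, and only this form was searched. The promoters of 3 of these genes are shown because the genes moved together and hold that core. The core or its reverse complement CACGT occurs in the 250 bases before a start site in HK2, LDHA and P4HA1, and was not found there in PKM, SLC2A1 or ADM, the other 3 genes called lower. PKM (-0.25 on the log2 scale, edgeR adjusted p = 0.0377) was not called when any 1 of the 4 libraries was left out, with adjusted p from 0.061 to 0.258, and ADM (-0.87, edgeR adjusted p = 0.00681) had 0.0576 without Mix 2. Over the list, 23 of 35 genes with a RefSeq window hold it (65.7%), against 3679 of 13436 tested genes with one (27.4%). The list was drawn up from genes of the hypoxia response, so this share does not bear on the difference between Mix and DProP. Any part of these factors in that difference was not tested. A match is a description of letters and not a bound site. The 120 bases that end at the base before the start site are given 5′ to 3′ on the gene's strand (RefSeq, GRCh38.p14), with the core in capitals on either strand, overlapping matches merged. They lie at chr2:74834007-74834126 (plus strand), chr11:18394443-18394562 (plus strand) and chr10:73096867-73096986 (minus strand).
HK2: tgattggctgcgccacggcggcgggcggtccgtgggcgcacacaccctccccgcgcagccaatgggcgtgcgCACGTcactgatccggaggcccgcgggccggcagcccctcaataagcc
LDHA: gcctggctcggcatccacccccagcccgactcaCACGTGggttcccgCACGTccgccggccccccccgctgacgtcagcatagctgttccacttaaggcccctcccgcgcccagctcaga
P4HA1: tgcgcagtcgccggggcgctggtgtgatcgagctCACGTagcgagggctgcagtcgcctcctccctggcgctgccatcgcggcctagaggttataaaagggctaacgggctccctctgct

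ATF4 directs the response to amino acid shortage, and of 32 genes in its list 6 were lower and 1 higher, with a median of -0.17. MTHFD2, a mitochondrial enzyme of one-carbon metabolism, had 13.1 and 12.4 CPM in Mix and 25.5 and 24.8 CPM in DProP (log2 fold change -0.98, SE 0.11, edgeR adjusted p = 0.000875). ASNS, asparagine synthetase, had 13.1 and 12.6 CPM in Mix and 18.2 and 18.2 CPM in DProP (log2 fold change -0.50, edgeR adjusted p = 0.00564). GDF15, a secreted stress hormone, had 2.62 and 3.78 CPM in Mix and 9.04 and 8.25 CPM in DProP (log2 fold change -1.44, SE 0.21, edgeR adjusted p = 0.00298). Many other members, including ATF4 itself (0.06), PSAT1 (0.02) and DDIT3 (-0.50) on the log2 scale, did not pass the test. The 6 lower calls became 4 without Mix 1, 5 without Mix 2, 3 without DProP 1 and 4 without DProP 2.

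NFE2L2 controls antioxidant genes, and of 33 in its list 7 were lower and 1 higher, with a median of -0.14. The lower calls became 3 whichever of the 4 libraries was left out. ME1, the cytosolic malic enzyme that yields NADPH, had 165 and 157 CPM in Mix and 234 and 217 CPM in DProP (log2 fold change -0.49, edgeR adjusted p = 0.00405). The exception, the carbonyl reductase gene CBR1, had 66.6 and 60.7 CPM in Mix and 34.3 and 39.4 CPM in DProP (log2 fold change 0.79, SE 0.08, edgeR adjusted p = 0.000386). Targets of p53 were lower for 6 of 31 and higher for 0 (13 lower and 1 higher at an unadjusted p under 0.05, 6 and 0 by limma-voom, 9 and 0 by DESeq2). Those 6 calls became 0 without Mix 1, 7 without Mix 2, 2 without DProP 1 and 0 without DProP 2. TFRC, the transferrin receptor for iron uptake, had 179 and 161 CPM in Mix and 228 and 251 CPM in DProP (log2 fold change -0.50, edgeR adjusted p = 0.00408).

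**Figure D3:**
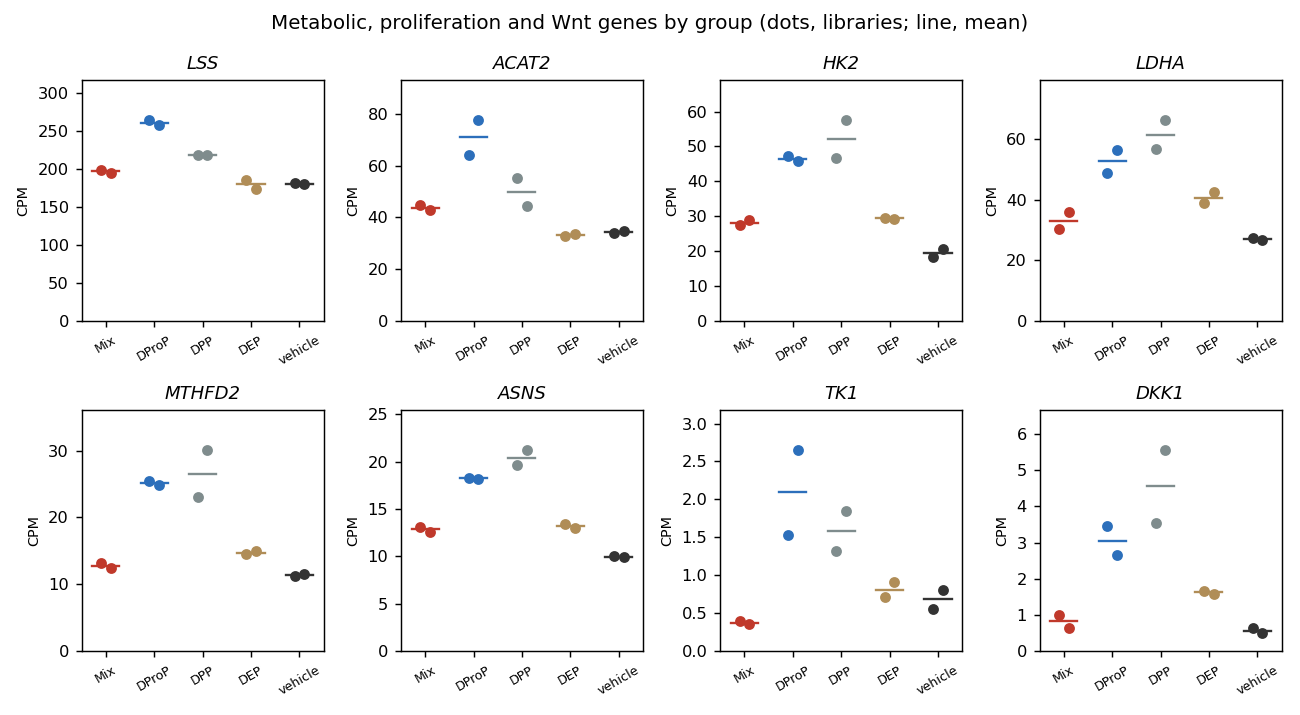
CPM of 8 genes in the 10 libraries, by group, with dots for libraries and a line for the group mean; each axis starts at 0. Mix is below DProP in all 8 panels, and the DProP libraries of TK1 lie at 1.54 and 2.65 CPM.

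Cell cycle genes had the lowest median of the lists described, but it rested largely on 1 library. Of 51 genes 18 were lower in Mix and 0 higher, with a median log2 fold change of -0.87; 38 lower and 0 higher had an unadjusted p under 0.05, limma-voom called 14 lower and DESeq2 33 lower, both with 0 higher. The mean centred level of the list, as log2(CPM + 1), was -0.30 and -0.19 in Mix and 0.01 and 0.80 in DProP. DProP 2 thus stood apart, and the other 9 libraries ran from -0.30 to 0.24. Without DProP 2 the median was -0.29 and 5 genes were lower and 1 higher, whereas without DProP 1 42 were lower. Leaving out Mix 1 gave 2 lower calls and leaving out Mix 2 gave 8. The proliferation marker MKI67 had 25.8 and 32.4 CPM in Mix and 42.7 and 119 CPM in DProP and did not pass the test (log2 fold change -1.48, edgeR adjusted p = 0.156).

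TK1, a thymidine kinase of the S phase, was the 1 member of the list still called in all 4 fits, with 0.396 and 0.351 CPM in Mix and 1.54 and 2.65 CPM in DProP (log2 fold change -2.48, SE 0.34, edgeR adjusted p = 0.00174). Outside the list, PKMYT1, a kinase that holds cells before mitosis, had 0.478 and 0.542 CPM in Mix and 1.94 and 3.14 CPM in DProP (log2 fold change -2.32, edgeR adjusted p = 0.00123). WDR62, a spindle pole protein, had 4.76 and 6.05 CPM in Mix and 10.8 and 15.1 CPM in DProP (log2 fold change -1.26, edgeR adjusted p = 0.00155). Both Mix libraries of these 3 genes were also below every DPP, DEP and vehicle library. Replication-dependent histones showed the split of the DProP libraries again, with list levels of -0.24 and -0.06 in Mix and -0.13 and 0.67 in DProP. Of 47 histones 6 were lower and 0 higher (21 lower and 0 higher at an unadjusted p under 0.05, 2 and 0 by limma-voom, 15 and 0 by DESeq2). Their median was -0.64, or -0.0074 without DProP 2, where 2 were lower and 1 higher. Reads of these near-identical histone genes may be shared between copies.

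**Figure D4:**
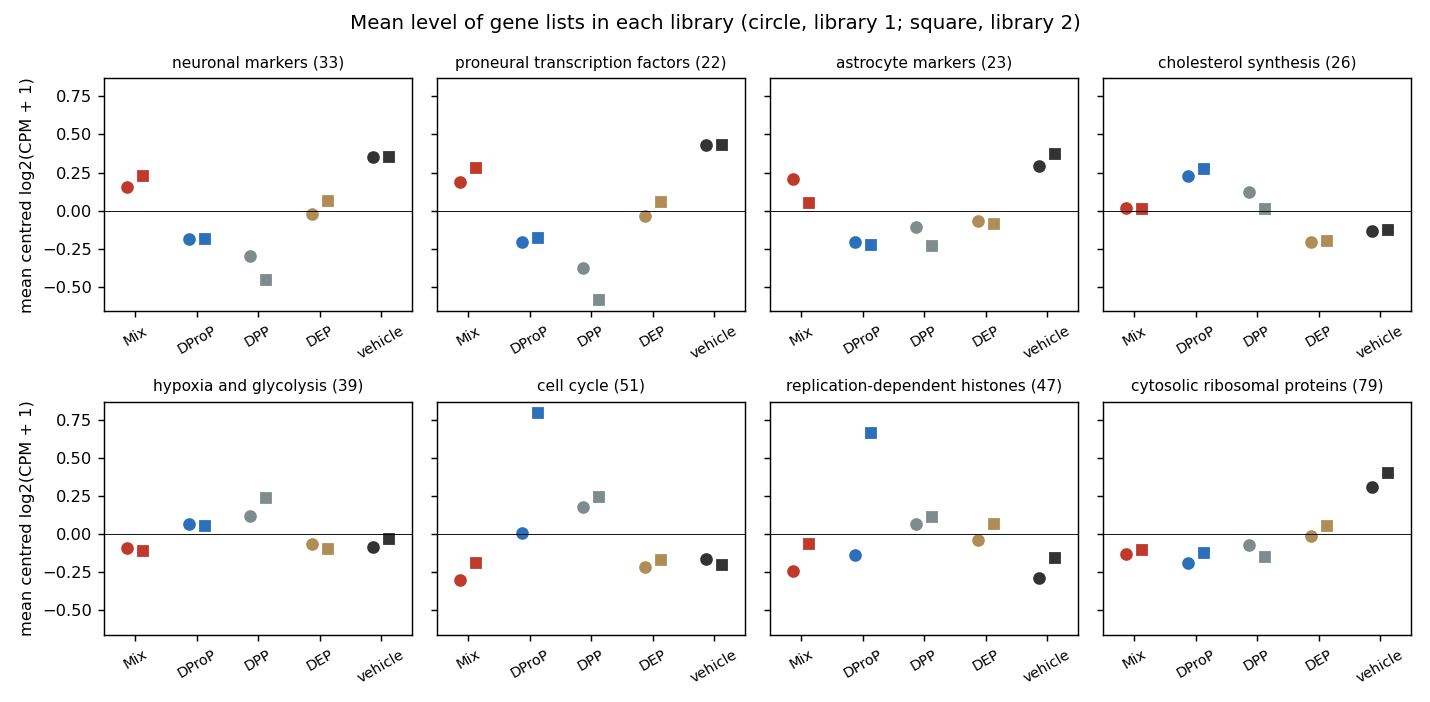
Mean level of 8 gene lists in each library, as log2(CPM + 1) centred on each gene's mean over the 10 libraries, with circles for library 1 and squares for library 2 of a group. For the cell cycle and histone lists the DProP square, at 0.80 and 0.67, stands apart, while for the neuronal list both Mix points, at 0.15 and 0.23, lie above both DProP points, at -0.19 each.

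Several gene groups had few or no calls, beside 6.89% of all tested genes called and 21.6% at an unadjusted p under 0.05. None of 79 cytosolic ribosomal protein genes and none of 75 nuclear genes of oxidative phosphorylation was called by edgeR, with 5 and 7 at an unadjusted p under 0.05, 0 and 0 by limma-voom and 1 and 1 by DESeq2. Their log2 fold changes ran from -0.13 to 0.25 and from -0.23 to 0.26. Among 20 heat shock genes and 28 chaperones of the endoplasmic reticulum edgeR and limma-voom called 0, and DESeq2 called 1 and 0, with 5 and 3 at an unadjusted p under 0.05. The 13 mitochondrially encoded genes and the 10 metallothionein and zinc export genes had 0 calls by edgeR, limma-voom and DESeq2, and 0 at an unadjusted p under 0.05. Their log2 fold changes ran from -0.04 to 0.26, with 12 of the 13 above 0, and from -5.86 to 2.85. The 18 smooth muscle and mesenchymal markers had 0 calls by each of the 3 tools and 5 at an unadjusted p under 0.05. Their log2 fold changes ran from -0.54 to 6.10. In the lists of 10 to 28 genes 0 calls is close to the share over all tested genes. In the lists of 79 and 75 genes 0 calls is below that share. Their 5 and 7 genes at an unadjusted p under 0.05 are likewise below the share of 21.6%. None of these counts is read as an absence of difference. Of 1875 tested lncRNA genes 8 were higher and 16 lower, with a median of -0.16. The libraries came from an exome capture kit, so for such transcripts capture and expression cannot be told apart.

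**Figure D5:**
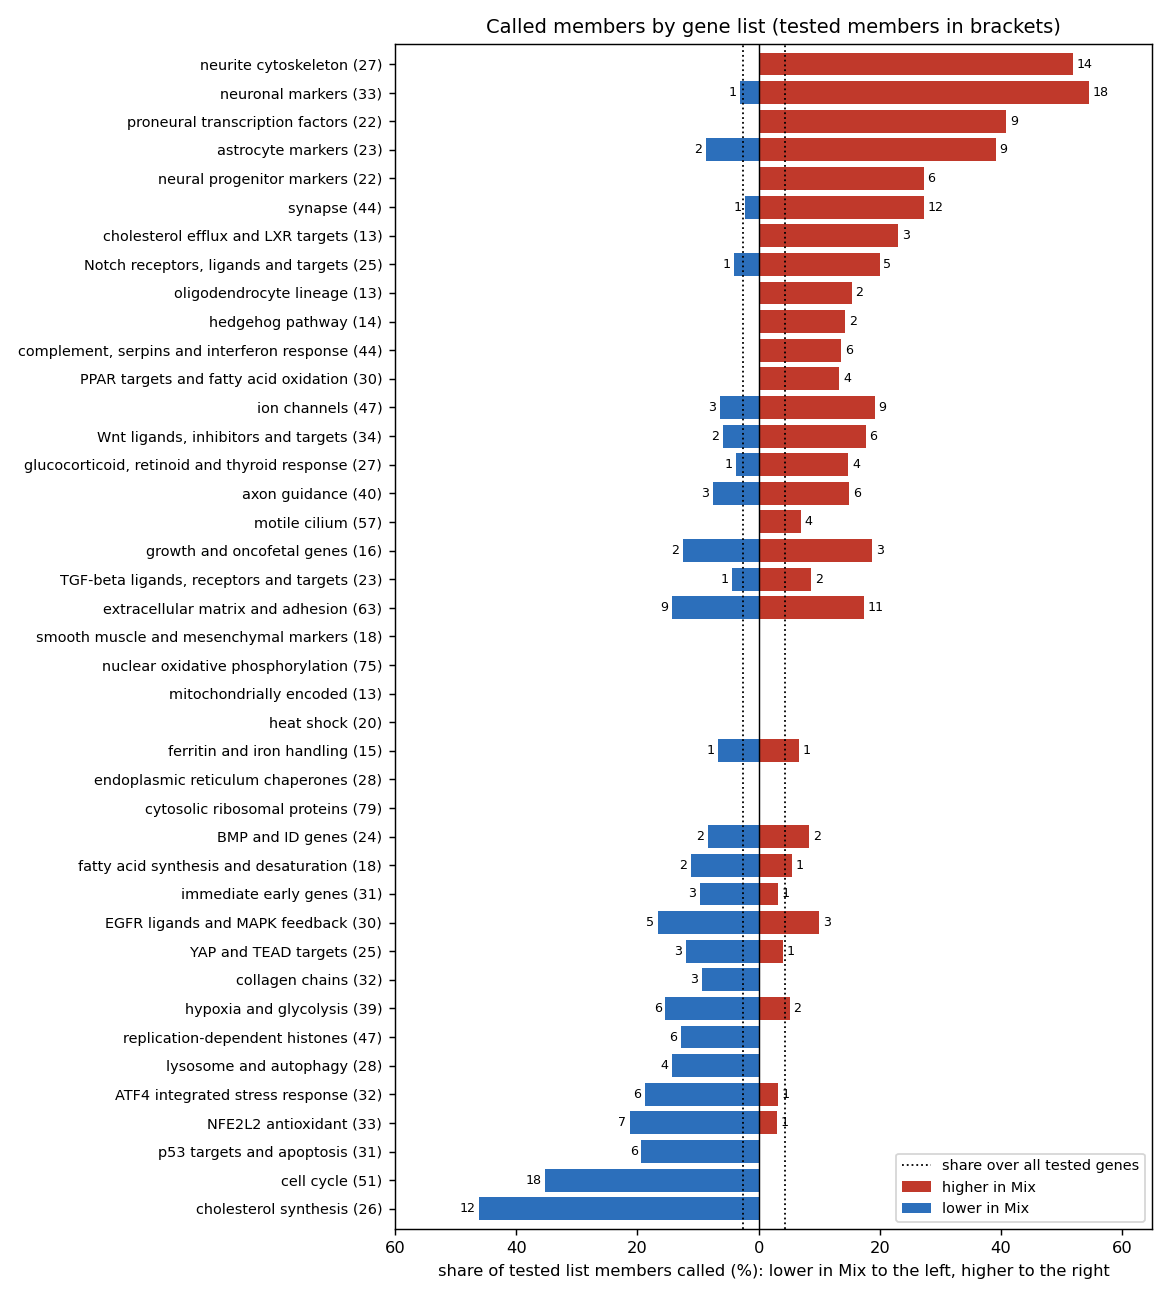
Share of the tested members of each list with 12 or more tested members that was called higher (red, right) or lower (blue, left) in Mix than in DProP, with the number called beside each bar. Dotted lines mark the shares over all tested genes, 4.36% higher and 2.53% lower; neuronal lists reach farthest to the right, and cholesterol synthesis and cell cycle farthest to the left.

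The largest increases that held without any 1 library were mostly of genes at low levels. BPIFB2, of the BPI fold family, had 2.76 and 2.41 CPM in Mix and 0.439 and 0.424 CPM in DProP (log2 fold change 2.58, SE 0.29, edgeR adjusted p = 0.000693). SULF1, which trims sulphate groups from heparan sulphate, had 3.40 and 3.11 CPM in Mix and 0.523 and 0.792 CPM in DProP (log2 fold change 2.29, SE 0.25, edgeR adjusted p = 0.000565). SERPING1, the inhibitor of complement C1, had 15.03 and 14.02 CPM in Mix and 2.56 and 3.72 CPM in DProP (log2 fold change 2.20, SE 0.22, edgeR adjusted p = 0.000386). For all 3 genes Mix lay above all 8 other libraries. ZNF536, a zinc finger protein, and UNCX, a homeobox factor, had log2 fold changes of 1.87 and 1.74. CNGA3, KIRREL3 and KCNN1 completed the increases with 1.88, 1.70 and 1.66. Of 44 complement, serpin and interferon genes 6 were higher and 0 lower, with 13 and 3 at an unadjusted p under 0.05, 6 and 0 by limma-voom and 8 and 0 by DESeq2. The 6 became 1 without Mix 1, 4 without Mix 2, 3 without DProP 1 and 3 without DProP 2.

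Among the largest decreases, SLCO4A1, an organic anion transporter, had 0.478 and 0.621 CPM in Mix and 1.86 and 1.86 CPM in DProP (log2 fold change -1.76, edgeR adjusted p = 0.00305). The gap junction gene GJA3 had 1.39 and 1.61 CPM in Mix and 3.90 and 3.58 CPM in DProP (log2 fold change -1.32, edgeR adjusted p = 0.00287). At 1 locus the count depended on how reads were assigned. TNNI3K had 0 and 0 counts in Mix and 178 and 216 in DProP, while the readthrough gene FPGT-TNNI3K, which overlaps it on chromosome 1, had 246 and 172 counts in Mix and 31 and 50 in DProP. The 2 genes summed to 3.36 and 2.74 CPM in Mix and 3.53 and 3.63 CPM in DProP, so the opposite differences of the pair are uncertain and no fold change is given.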

How the data were processed

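RNA sequencing libraries of ReNcell VM neurospheres were made by exome capture (SureSelect RNA Direct), per the labels' protocols. The authors deposited 1 table of whole read counts by NCBI gene identifier, without normalisation or a filter. The submitters' processing notes name Trimmomatic 0.38, FastQC, HISAT2 2.1.0, R 4.3.2 with edgeR 4.0.9, StringTie 2.1.3b and GRCh38. The counting tool, annotation, strandedness and treatment of multiply mapped reads were not given in the sources used here, so overlapping, antisense and near-identical genes are uncertain.

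Of 46427 genes, 17765 had no count in any library and 19465 passed filterByExpr by group. Counts were scaled by TMM, and a robust quasi-likelihood fit of edgeR 4.0.16 (R 4.3.3) over all 10 libraries, with 1 mean per group and 5 residual degrees of freedom, gave Mix minus DProP. The threshold was an adjusted p of 0.05 (Benjamini-Hochberg, two-sided) without a fold minimum. With 2 libraries against 2 no exact test on 1 gene could reach it, so the pooled spread carries the p values (common biological coefficient of variation 9.40%). For log2 fold changes the 95% interval had a median half-width of 0.31. The standard error is the size of the log2 fold change divided by the square root of F. Library totals ran from 57222381 to 72973100 counts.

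Alternatives were RLE factors, scaling by library size alone, testing all genes with a count, requiring 1 CPM in 2 libraries, limma-voom (limma 3.58.1), DESeq2 1.42.0, the replicate number as a block, the Mix and DProP libraries alone, no vehicle libraries, and each of the 4 libraries left out, which makes 13 fits, as well as a 2-fold minimum. A lone library is then assumed to vary like the other groups. The tests were checked on simulated counts with known changes.

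The comparison, its 49 gene lists and the rules were chosen with earlier results of these data known. Lists are described by counts and medians and were not tested. Some genes are in more than 1 list, such as INSM1 in the neuronal and proneural lists, so the lists are not independent. Named genes are the 10 largest increases and 10 largest decreases that were called, had a mean of at least 1 CPM, did not overlap between groups and stayed called without each library, up to 4 called members with the smallest p from each list, and a set of markers. The text gives a part of these. GRIK2, GJA1, SPARCL1, BCAN, ENO2, PKM, ADM and the members given as not called were named after their values were seen. Some genes of these lists are counted but not reported here by name.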

Additional observations from a re-analysis of the deposited data

How the results depend on the processing

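The 1342 calls kept within 1.5 times their number under RLE factors (1295), library size alone (1268), no filter (1256), the stricter filter (1617), limma-voom (1340), DESeq2 (1920), the Mix and DProP libraries alone (1058) and without both vehicle libraries (1317). DESeq2 called 781 genes lower against 493, and the cause was not tested. A 2-fold minimum left 245 genes, 133 higher and 112 lower. With 1 library left out the calls ran from 382 to 774, the higher ones from 280 to 517 and the lower ones from 102 to 370, in fits with fewer samples. The lowest counts came without Mix 1, the next without DProP 2. The replicate number as a block gave 1234 calls, but the numbers do not pair the libraries: replicate differences of Mix and DProP correlated at 0.030 over genes, and all 10 pairs of groups lay between -0.0465 and 0.0471. No named gene that was called changed its direction under these settings. The smallest called difference was 0.19 on the log2 scale, so smaller ones were not detectable with 2 libraries per group at this depth.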

Other observations

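Several neural gene families outside the lists were looked at after their values were seen, so the counts below are descriptions. The EBF factors act in neuronal differentiation. EBF2 had 40.4 and 45.3 CPM in Mix and 18.8 and 18.9 CPM in DProP (log2 fold change 1.18, edgeR adjusted p = 5.75e-05), EBF3 had 65.3 and 69.7 CPM in Mix and 35.1 and 37.8 CPM in DProP (0.89, edgeR adjusted p = 0.0026), and EBF4 was higher by 0.62. EBF1 had a log2 fold change of 0.22 and did not pass the test. Both SCRT repressors of the neuronal lineage were higher, SCRT1 by 1.15 and SCRT2 by 1.37. The sialyltransferase ST8SIA2, which builds polysialic acid on neural adhesion molecules, had 28.2 and 27.96 CPM in Mix and 17.9 and 15.9 CPM in DProP (0.73, edgeR adjusted p = 0.000653), while ST8SIA4, the other polysialyltransferase, differed by 0.28 and was not called.

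Members of 1 family moved in opposite directions in the SEZ6 group of neuronal membrane proteins. SEZ6L had 51.9 and 51.3 CPM in Mix and 25.4 and 26.8 CPM in DProP (0.98, edgeR adjusted p = 7.64e-05), and SEZ6L2 was higher by 1.06. SEZ6 had 67.0 and 73.9 CPM in Mix and 90.1 and 98.9 CPM in DProP (-0.42, edgeR adjusted p = 0.0038). MIR9-1HG, the host transcript of a neural microRNA gene, had 134 and 133 CPM in Mix and 72.2 and 75.4 CPM in DProP (0.86, edgeR adjusted p = 5.75e-05), above all 8 other libraries in Mix. The tests and the adjustment over all 19465 genes are those of the report.

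Of the 1342 called genes, 13 had 0 counts in both Mix libraries and 7 had 0 counts in both DProP libraries. Their log2 fold changes depend on the prior count and are not given.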
